A study of Rattus norvegicus with 18 samples.

Results

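The genes described here encode the main cytosolic and mitochondrial heat shock proteins, the chaperones that hold, refold and sort damaged proteins. The set was chosen by name and held 10 genes, namely Hspa1a, Hspa1b, Hspb1, Dnajb1, Hsph1, Hspa8, Hsp90aa1, Bag3, Hspd1 and Hspe1. Each was present by its symbol among the 31463 rows of the count files, and all 10 had counts high enough to be tested with 14398 genes in all. RNA was sequenced from 18 libraries, 3 in each of 6 groups, made from cortical cultures of the rat that hold neurons and glia. Control cultures received no glutamate, and the Glutamate group was exposed to 100 µM glutamate on day 10 in vitro, with RNA taken 4 h after the exposure. Per the study's methods, Memantine cultures received glutamate together with 100 µM memantine, which blocks the channel of NMDA receptors. Cultures of the Glutamate_vesicles, Glutamate_secret and Glutamate_BPC groups were given secreted material of human glial progenitor cells the day before glutamate. The first of these received extracellular vesicles. A fraction of secreted proteins and the total secretome were the other preparations, and the labels do not assign them to Glutamate_secret or Glutamate_BPC. The cells came from newborn Wistar rats, and the culture medium had contained cytosine arabinoside, which limits the division of glia. The labels do not say whether the 3 libraries of a group came from separate cultures. The study's methods describe its experiments in general as made on unrelated cultures, and its supplement mentions a covariate for the day, which the labels used here do not assign to libraries and which could not be entered. The p-values measure the spread between these libraries, which may be technical.

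The heat shock response is driven by heat shock factor 1, which is released when unfolded proteins occupy the chaperones and then binds repeats of the letters GAA and its complement TTC in the promoters of its targets. Hspa1a and Hspa1b encode the stress-inducible Hsp70 proteins, and Hspa8 the Hsp70 that cells make at all times. Dnajb1, an Hsp40, delivers clients to Hsp70 and stimulates its ATPase, while Hsph1 (Hsp110) and Bag3 release the bound nucleotide. Bag3 also joins Hsp70 to the small heat shock proteins and to autophagy. Hspb1, also known as Hsp27, is a small heat shock protein that holds unfolded proteins without ATP, and it is made by reactive astrocytes and by stressed neurons. Hsp90aa1 encodes the stress-responsive form of Hsp90. Hspd1 and Hspe1 encode the chaperonin and co-chaperonin of the mitochondrial matrix, and the pair is transcribed in opposite directions from a shared promoter region.

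Promoter windows were taken from RefSeq (build GRCr8), which held 300 bases around the annotated start for 8 of the 10 genes, 250 bases before and 50 after it. They were searched for the element that heat shock factor 1 binds, while the set itself was chosen by name. The motif searched was GAANNTTC or TTCNNGAA. Each of these reads the same on both strands. It was found in 7 of the 8 windows, all but that of Hspa1a, against 15.9% of all 33469 promoter windows. A match of Hspa1a outside the 300 bases around its annotated start would not have been seen. The longer form, in which a further unit of alternating orientation adjoins at the same spacing, contains the shorter one, was searched on both strands and was found in 4 of the 8, against 0.798% of all windows. A match describes letters in a window and says nothing of binding in these cultures. The 250 bases before the start of Hspb1 (chr12:26432302-26432551, minus strand), Bag3 (chr1:192533210-192533459, plus strand) and Hspd1 (chr9:64084038-64084287, minus strand) are given 5′ to 3′, with every match in capitals. Those of Hspb1 and Bag3 are printed because these genes had the smallest p in the comparisons with Control, and that of Hspd1 because of its long element.
Hspb1: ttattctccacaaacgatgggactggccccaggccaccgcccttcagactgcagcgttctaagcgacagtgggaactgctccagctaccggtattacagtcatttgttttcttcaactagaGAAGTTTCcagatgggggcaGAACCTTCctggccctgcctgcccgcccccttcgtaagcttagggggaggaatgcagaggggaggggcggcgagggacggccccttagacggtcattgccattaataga
Bag3: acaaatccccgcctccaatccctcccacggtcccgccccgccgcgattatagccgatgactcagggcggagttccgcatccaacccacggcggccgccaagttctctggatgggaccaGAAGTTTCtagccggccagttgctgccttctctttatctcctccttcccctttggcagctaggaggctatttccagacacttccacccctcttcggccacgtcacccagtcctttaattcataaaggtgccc
Hspd1: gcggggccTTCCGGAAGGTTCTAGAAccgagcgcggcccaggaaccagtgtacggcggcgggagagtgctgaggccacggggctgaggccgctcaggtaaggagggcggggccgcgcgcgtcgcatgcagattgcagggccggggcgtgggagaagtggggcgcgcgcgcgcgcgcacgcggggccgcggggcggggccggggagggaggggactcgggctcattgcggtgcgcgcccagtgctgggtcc
In Hspb1 the matches began 129 and 109 bases before the start, and in Bag3 the only match began 132 bases before it. The Hspd1 element ran over 18 bases, beginning 242 bases before the start. The windows of Hspd1 and Hspe1 overlapped by 211 bases, and the same 18 bases were read on the opposite strand 65 bases before the start of Hspe1 (chr9:64084262-64084279). The long elements of Hspe1, Hspa8 (chr8:50080301-50080313 and chr8:50080459-50080471) and Hsph1 (chr12:10427332-10427344) are given on the plus strand, followed by the shorter match just before the start of Dnajb1 (chr19:41431145-41431152), given on the minus strand, to show how far the repeats ran in each.
Hspe1: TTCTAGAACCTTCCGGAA
Hspa8, distal: GAAAGTTCCAGAA
Hspa8, proximal: TTCTGGAAGGTTC
Hsph1: TTCTGGAAAGTTC
Dnajb1: GAAGGTTC
Hspb1, Bag3 and Dnajb1 had the short form only. No window was given for Hspa1b and Hsp90aa1.

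The shallowest library, Control 1, held 8409574 counts, and the deepest, Glutamate_vesicles 2, held 17206354. Levels are given in CPM, read counts in proportion to a library size scaled with the TMM method of edgeR, as mean ± standard deviation (SD, n = 3 libraries). Libraries are named by group and replicate number. Between 3.04% and 43.0% of a library's counts were ribosomal RNA (rRNA), which libraries of messenger RNA should mostly lack. Control 1 had the highest share and stood apart from Control 2 and Control 3 (6.80% and 6.58%), and values that changed without it are given beside the comparisons with Control. Across the cultures, the summed level of 7 neuron markers was 1914 to 2603 CPM in Control, 540 to 1050 in Glutamate, 535 to 819 in Glutamate_vesicles, 464 to 972 in Glutamate_secret and 614 to 976 in Glutamate_BPC. In Memantine it was 3018, 2055 and 599 CPM, with the third library inside the range of the glutamate groups. Summed astrocyte markers were at 2622 to 6040 CPM in Control, 5402 to 10636 in Glutamate, 3559 to 10145 in Memantine, 3388 to 6843 in Glutamate_vesicles, 5460 to 8616 in Glutamate_secret and 7087 to 12712 in Glutamate_BPC. In sum every Glutamate_BPC library lay above those of Control, but only 4 of the 7 astrocyte markers had an estimate above Control there, with none called. Summed markers of the oligodendrocyte lineage lay between 171 CPM in Control 1 and 998 in Glutamate_vesicles 2, and those of microglia between 17.3 in Memantine 1 and 383 in Glutamate_secret 3. Markers of endothelial cells (at most 4.21 CPM in sum) and of fibroblasts and mural cells (at most 19.5) were low in every library. In such bulk samples, fewer cells of a type and less RNA per cell cannot be told apart.

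The small heat shock protein gene Hspb1 had the widest range of the 10 genes, from 2.50 CPM in Memantine 2 to 162 in Glutamate_vesicles 1, a 65.0-fold span. It measured 2.86, 2.70 and 21.5 CPM in Control, 65.7, 3.75 and 31.2 in Glutamate, and 50.04, 2.50 and 43.1 in Memantine, for replicates 1, 2 and 3. In the groups with a secreted preparation it was 162, 48.7 and 48.9 (Glutamate_vesicles), 55.4, 37.6 and 122 (Glutamate_secret), and 54.2, 53.5 and 110 (Glutamate_BPC). Each of the 9 libraries with a preparation lay above each Control library, whereas Glutamate and Memantine overlapped Control through their second replicate. The share of all genes for these 9 libraries together was not computed. For single groups it was 9.72% (Glutamate_vesicles), 6.88% (Glutamate_secret) and 12.2% (Glutamate_BPC). Glutamate 1, at 65.7, lay above libraries of every preparation. The means were highest with a preparation, at 86.7 ± 65.6 for Glutamate_vesicles, 72.5 ± 32.3 for Glutamate_BPC and 71.8 ± 44.7 for Glutamate_secret, and were 33.6 ± 31.1 for Glutamate, 31.9 ± 25.7 for Memantine and 9.03 ± 10.8 for Control. Neighbours in this order differed by less than the larger of their SDs.

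Bag3, the co-chaperone that connects Hsp70 to small heat shock proteins, showed a related pattern, with a tighter spread in 2 groups. Its level was 6.57, 17.5 and 50.4 CPM in Control against 101, 43.7 and 65.3 in Glutamate and 75.3, 25.2 and 69.8 in Memantine. It was 74.1, 77.4 and 68.1 in Glutamate_vesicles, 40.2, 71.4 and 41.6 in Glutamate_secret, and 64.3, 74.5 and 74.1 in Glutamate_BPC. Control 3 was the only Control library that reached into the range of other groups, and the vesicle and BPC libraries all lay above it. Ordered by mean, neighbouring groups differed by more than the larger of their SDs in 1 place only over all 10 genes, between Glutamate_secret (51.1 ± 17.6) and Control (24.8 ± 22.8) for Bag3, and there the libraries still overlapped.

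The inducible Hsp70 genes were measured from few reads. Hspa1a had 3 to 37 counts per library and Hspa1b 5 to 144. Hspa1a was at 0.857, 0.393 and 0.969 CPM in Control and at 0.775, 0.254 and 1.17 in Glutamate. Its level was 2.26, 0.556 and 2.37 with memantine, 2.39, 1.48 and 1.75 with vesicles, 3.78, 1.37 and 0.905 in the Glutamate_secret libraries, and 2.45, 1.90 and 1.52 in the Glutamate_BPC libraries. The vesicle and BPC libraries were above all Control and all Glutamate libraries. Hspa1b, in contrast, overlapped in every comparison of these groups with Control, at 0.945 to 5.87 CPM. The genes are nearly identical copies, so that the counting may have split their reads, and each one's value is uncertain. Hspa1b held between 18.6% (Glutamate_secret 1) and 94.6% (Glutamate 2) of their summed counts. The sum of both was 2.28 to 6.84 CPM in Control, 4.39 to 6.32 in Glutamate and 5.98 to 7.26 in Glutamate_vesicles, and no comparison of the sum had an unadjusted p under 0.107.

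Among the Hsp70 partners, Dnajb1 varied little, between 26.7 CPM in Glutamate 2 and 75.3 in Memantine 1. Its Control libraries were close together (40.9 ± 2.14), and those of Glutamate_secret (33.8 ± 4.20) all lay below them. Hsph1 ranged from 21.7 to 152 CPM, with the highest value in Memantine 2. Constitutive Hspa8 stayed within a 2.13-fold range, 1378 to 2935 CPM, with group means between 1831 ± 394 in Glutamate_secret and 2249 ± 602 in Memantine.

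Hsp90aa1 spanned 1143 to 41112 CPM, and its highest value was that of Control 1. It measured 41112, 3486 and 1809 CPM in Control, 10581, 2472 and 7372 in Glutamate, 17164, 1915 and 3421 with memantine, 6392, 1143 and 2054 with vesicles, 11563, 1234 and 12456 in Glutamate_secret, and 4742, 2631 and 5002 in Glutamate_BPC. The values of every group overlapped those of every other, and all second replicates lay between 1143 and 3486 CPM. Processed copies of the gene were present as rows of their own, with 867 to 2670 counts per library for Hsp90aa1-ps17, so that reads could be shared with them.

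Of the mitochondrial genes, Hspd1 was at 227, 359 and 354 CPM in Control and at 380, 441 and 430 in Glutamate. It was at 315, 335 and 447 with memantine, 400, 398 and 526 with vesicles, 406, 482 and 399 in Glutamate_secret, and 353, 434 and 322 in Glutamate_BPC. The libraries of Glutamate, Glutamate_vesicles and Glutamate_secret all lay above those of Control. Hspe1 spanned 55.0 to 780 CPM, with the lowest value in Memantine 2 and the highest in Glutamate_secret 3. Over the 18 libraries the log2 values of Hspd1 and Hspe1 had a Pearson r of -0.05 (two-sided permutation p = 0.851) and a Spearman rho of 0.02 (p = 0.955). Leaving out the libraries farthest from the median of Hspd1, Control 1 and Glutamate_vesicles 3, gave r = 0.14. Within the replicate numbers r was 0.17, 0.55 and 0.26.

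**Figure D1:**
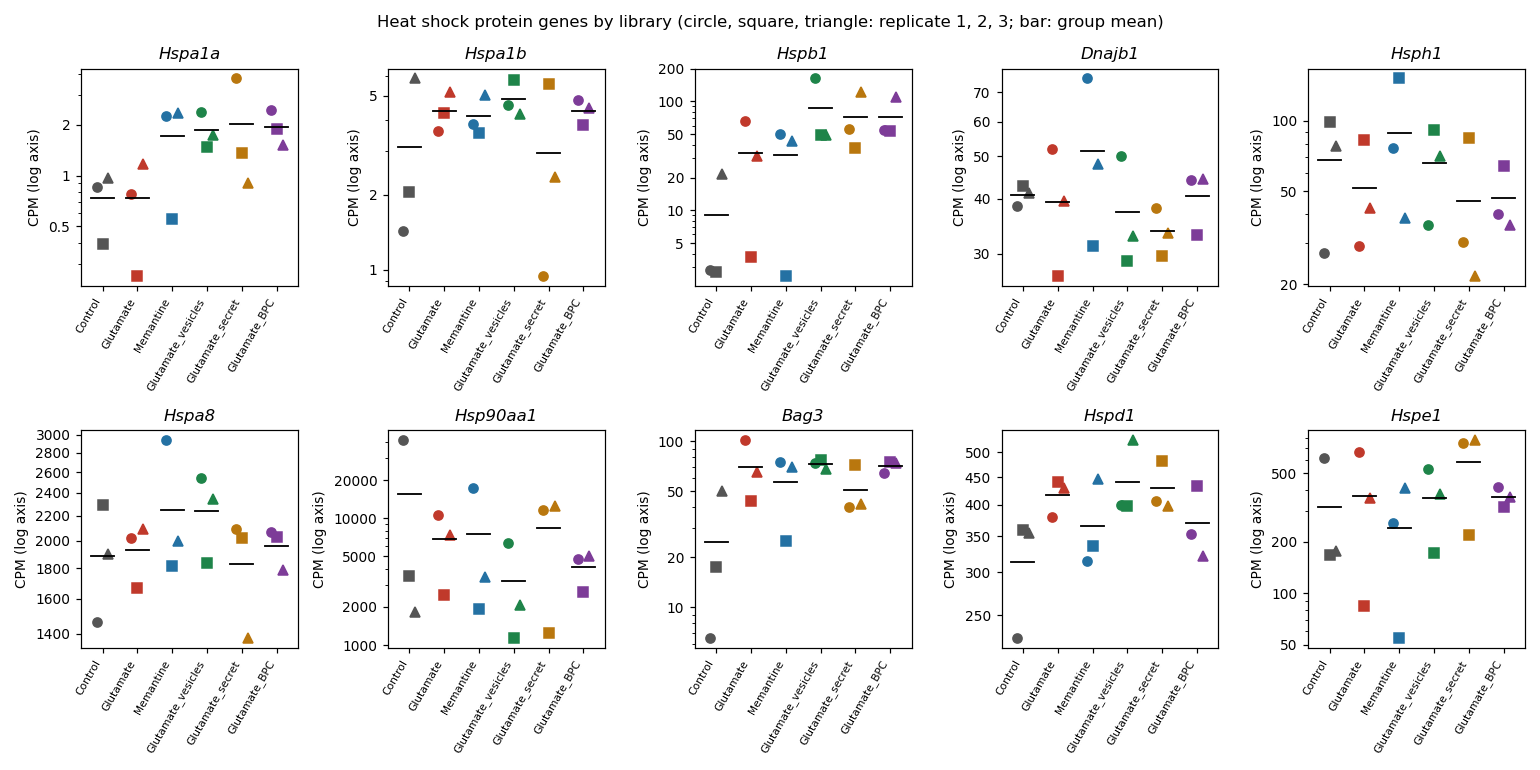
Level of each of the 10 genes in the 18 libraries, in CPM on log axes, by group; circles, squares and triangles are replicates 1, 2 and 3 and bars are group means. Hspb1 lies at 37.6 CPM or more in all 9 libraries with a secreted preparation and at 21.5 or less in Control. The share of all genes that do so was not computed. Glutamate 1 (65.7), Glutamate 3 (31.2), Memantine 1 (50.04) and Memantine 3 (43.1) also lie above Control for Hspb1. The Control 1 value of Hsp90aa1 stands at 41112.

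The first comparison asked what glutamate did to these genes. None of the 10 passed the threshold of edgeR's quasi-likelihood test (adjusted p below 0.05) in Glutamate against Control, where 0% of all tested genes passed. DESeq2 called 0 of the 10, against 1.61% of all genes, and so did edgeR's likelihood-ratio test, against 0.313%. At an unadjusted p below 0.05, 1 of the 10 was counted, Bag3, against 8.11% of all genes. Bag3 had a log2 fold change of 1.48 (standard error, SE, 0.58, adjusted p = 0.461). The estimate of Hspb1 was 1.86 (SE 1.08, adjusted p = 0.782), a 3.63-fold difference, with Glutamate 2 inside the range of Control. Hspd1 had 0.41 (SE 0.31, adjusted p = 0.934), and it was the 1 gene whose groups did not overlap, higher in Glutamate, against 4.48% of all genes. Hspa1b had 0.44, Hspe1 0.21, Hspa8 0.03, Hspa1a -0.01, Dnajb1 -0.05, Hsph1 -0.41 and Hsp90aa1 -1.18, with SEs between 0.35 and 1.17. The estimates were above 0 for 6 of the 10 genes, beside 56.0% of all genes, and their median of 0.12 was close to the median of all genes (0.08). Without Control 1 the estimate for Hsp90aa1 was 1.36 (SE 1.11), with the sign turned, and no gene of the 10 had an unadjusted p below 0.05. The share of all genes without Control 1 is not given here, so that this count has no background. Leaving out 1 library at a time moved Bag3 between 1.04 (without Control 1) and 2.51 (without Control 3) and Hspb1 between 0.92 (without Glutamate 1) and 3.59 (without Control 3). In the same comparison all 7 neuron markers had a log2 fold change below 0 (median -1.6) and all 7 astrocyte markers one above 0 (median 0.67). All 7 microglia markers (median 1.01) and 6 of 7 of the oligodendrocyte lineage (median 0.60) were above 0, and none of the 4 lists had a gene called. Whether these shifts bear on the values of Bag3 and Hspb1 was not tested.

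Each group with a preparation was also set against Control, which shows the joint difference of glutamate and preparation. These comparisons share the 3 Control libraries and are given side by side. In Glutamate_vesicles, Hspb1 had a log2 fold change of 3.23 (SE 1.13, 9.39-fold, edgeR adjusted p = 0.276) and Bag3 of 1.55 (SE 0.58, 2.92-fold, adjusted p = 0.299). They were the 2 of 10 with an unadjusted p below 0.05, against 11.6% of all genes, and 4 of the 10 (Hspb1, Bag3, Hspa1a and Hspd1) lay above Control without overlap, against 9.72% of all genes. None was called, against 0.0139% of all genes. Libraries of these groups with the same replicate number deviated together, with r of 0.60, 0.50 and 0.21 for numbers 1, 2 and 3. This pairing was judged from the same data, and what such libraries share is not known from the labels. With the replicate number as a block, edgeR called Hspb1 (1 of 10, against 3.74% of all genes). Its log2 fold change there was 3.51 (SE 0.85, adjusted p = 0.0349). DESeq2 called it too (1 of 10, against 3.66%), at 3.29 (adjusted p = 0.0379), and the likelihood-ratio test called 0 of the 10, against 1.11%. Without Control 3 the estimate was 4.96 and without Glutamate_vesicles 1 it was 2.40, with adjusted p of 0.179 and 0.523. Bag3 was at 2.58 without Control 3. Without Control 1, Hspb1 was at 2.84 (adjusted p = 0.591) and Bag3 at 1.11 (adjusted p = 0.621), and the number of the 10 genes with an unadjusted p below 0.05 fell to 1. The share of all genes in that fit is not given here. Neuron markers were at a median of -1.77, with none of 7 above 0, and astrocyte markers at 0.14 with 4 of 7 above 0. Microglia markers (7 of 7 above 0) were at 0.64 and those of the oligodendrocyte lineage (6 of 7) at 1.12. None was called, and their part in the values of Hspb1 and Bag3 was not tested.

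In Glutamate_secret, the estimate of Hspb1 was 2.96 (SE 1.12, 7.77-fold, edgeR adjusted p = 0.311), and it was the 1 gene of 10 with an unadjusted p below 0.05, against 11.8% of all genes. Hspb1 and Hspd1 lay above Control without overlap (2 of 10, against 6.88% of all genes) and Dnajb1 below it (1 of 10, against 9.07%). In Glutamate_BPC, Hspb1 had 2.97 (SE 1.12, 7.85-fold, adjusted p = 0.335) and Bag3 1.502 (SE 0.58, 2.83-fold, adjusted p = 0.339). These were 2 of 10 at an unadjusted p below 0.05, against 11.3% of all genes, and Hspb1, Bag3 and Hspa1a (3 of 10, against 12.2%) did not overlap Control. No gene of the 10 was called in either comparison, as was no other gene (0%). DESeq2 called none of the 10 either, against 3.18% of all genes for Glutamate_secret and 1.82% for Glutamate_BPC, nor did the likelihood-ratio test, against 1.55% and 0.424%. Leaving out 1 library at a time moved Hspb1 in Glutamate_secret between 2.33 (without Glutamate_secret 3) and 4.69 (without Control 3), and in Glutamate_BPC between 2.53 (without Control 2) and 4.71 (without Control 3). Bag3 in Glutamate_BPC lay between 1.06 (without Control 1) and 2.53 (without Control 3). Without Control 1, Hspb1 was at 2.56 in Glutamate_secret and 2.58 in Glutamate_BPC, and no gene of the 10 had an unadjusted p below 0.05 in either. The shares of all genes in these fits are not given here. Median log2 fold changes of the markers in Glutamate_secret were -1.59 for neurons, 0.17 for astrocytes, 1.22 for microglia and 0.60 for the oligodendrocyte lineage. In Glutamate_BPC they were -1.64, 0.54, 1.598 and 0.56. Of the 7 markers in each list, 0, 5, 6 and 6 were above 0 in Glutamate_secret and 0, 4, 7 and 5 in Glutamate_BPC, in the same order. None of these markers was called in either. Their part in the values of Hspb1 and Bag3 was not tested. Memantine against Control gave no gene of the 10 with an unadjusted p below 0.05, against 1.12% of all genes, and the smallest p were those of Bag3 (log2 fold change 1.18, SE 0.57, adjusted p = 1) and Hspa1a (1.23, SE 0.74, adjusted p = 1). They moved between 0.74 (without Control 1) and 2.21 (without Control 3) for Bag3 and between 0.89 (without Control 2) and 1.67 (without Memantine 2) for Hspa1a. The edgeR, likelihood-ratio and DESeq2 tests called 0 of the 10 there, and 0% of all genes.

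**Figure D2:**
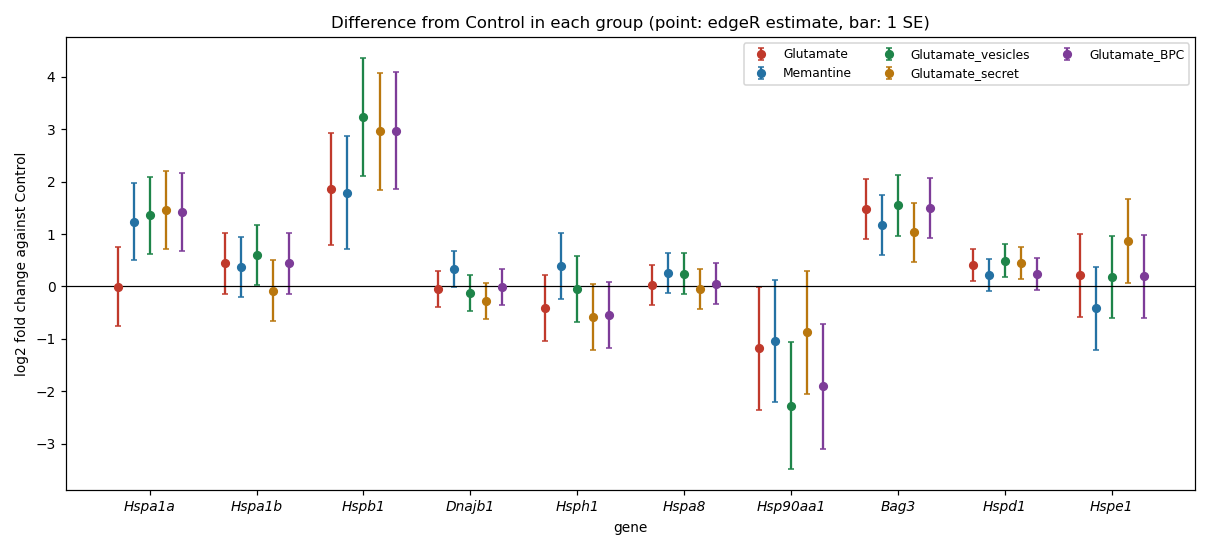
Log2 fold change of each gene against Control in the 5 other groups; points are edgeR estimates and bars are 1 SE. Hspb1 and Bag3 are above 0 in all 5 groups, Hspa1a is above 0 in all but Glutamate (-0.01), and Hsp90aa1 is below 0 in all 5 with SEs above 1, a direction that rests on Control 1 (without it, 0.27 to 1.67).

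The direction of Hsp90aa1 turned in each of these comparisons when Control 1 was left out. Its estimates were then 1.36 for Glutamate, 1.502 for Memantine, 0.27 for Glutamate_vesicles, 1.67 for Glutamate_secret and 0.64 for Glutamate_BPC, with SEs between 1.07 and 1.13.

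With the 4 groups that had glutamate and no memantine averaged, 12 libraries stood against 3. This comparison called 3.96% of all genes, and none of the 10. Hspb1 had a log2 fold change of 2.76 (SE 1.00, 6.76-fold, edgeR adjusted p = 0.157) and Bag3 of 1.39 (SE 0.49, 2.62-fold, adjusted p = 0.144). Both had an unadjusted p below 0.05 (2 of 10, against 16.4% of all genes), and no gene of the 10 had all 12 libraries above Control (0 of 10, against 1.77% of all genes) or below it (0 of 10, against 5.41%). DESeq2 called both (2 of 10, against 8.1% of all genes), with adjusted p of 0.0102 for Hspb1 and 0.0255 for Bag3, whereas the likelihood-ratio test called neither (0.0506 and 0.075), against 7.11%. Control 3, the library with the highest Hspb1 and Bag3 among the Control libraries, moved these values most. Without it the estimates were 4.49 for Hspb1 (adjusted p = 0.0816) and 2.42 for Bag3 (adjusted p = 0.0336), and without Control 1 they were 2.36 and 0.95 (adjusted p = 0.415 and 0.402). Neuron markers were at a median of -1.80 in this comparison, with 2 of 7 called lower, while microglia markers were at 1.199, those of the oligodendrocyte lineage at 0.87 and astrocyte markers at 0.23, with none called. The part of these shifts in the values of Hspb1 and Bag3 was not tested.

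The comparisons with the Glutamate group asked what memantine or a preparation changed under glutamate. No gene of the 10 was called in any of the 4, and 0% of all genes were. The likelihood-ratio test and DESeq2 called 0 of the 10 in each. Of all genes, DESeq2 called 0.0139% for Memantine, 0.0209% for Glutamate_vesicles, 0% for Glutamate_secret and 0.00696% for Glutamate_BPC, and the likelihood-ratio test 0.0139% for Glutamate_vesicles and 0% for the others. None of the 10 had an unadjusted p below 0.05 either, against 5.08% of all genes for Memantine, 1.08% for Glutamate_vesicles, 0.681% for Glutamate_secret and 1.07% for Glutamate_BPC. Hspa1a had the smallest p of the 10 in each of them. Its log2 fold change was 1.24 for Memantine (SE 0.73, edgeR adjusted p = 0.999), 1.36 for Glutamate_vesicles (SE 0.73, adjusted p = 1), 1.47 for Glutamate_secret (SE 0.74, adjusted p = 1) and 1.43 for Glutamate_BPC (SE 0.73, adjusted p = 1). Its lowest and highest values with 1 library left out were 0.81 and 1.78 for Memantine, 0.93 and 1.90 for Glutamate_vesicles and 0.997 and 1.97 for Glutamate_BPC, each without Glutamate 2 and without Glutamate 3, and 0.68 (without Glutamate_secret 1) and 2.00 (without Glutamate 3) for Glutamate_secret. It did not overlap Glutamate in the vesicle group (1 of 10, against 2.89% of all genes) and in the BPC group (1 of 10, against 2.88%). For the sum of Hspa1a and Hspa1b the corresponding estimates were 0.22, 0.41, -0.02 and 0.32 (SEs 0.45). Hspb1 had the next smallest p for the preparations, at 1.37, 1.10 and 1.11 in the same order (SEs 1.06, 1.05 and 1.05, adjusted p = 1 in each). These lay between 0.54 (without Glutamate_vesicles 1) and 2.31, between 0.47 (without Glutamate_secret 3) and 2.04, and between 0.58 (without Glutamate 2) and 2.05, the highest each without Glutamate 1. Hsph1 had it for Memantine, at 0.79 (SE 0.63, adjusted p = 0.999), between 0.16 (without Memantine 2) and 1.31 (without Glutamate 2). A comparison of the mean of the 3 preparations with Glutamate was added after these values were seen. It called 0% of all genes, as did the likelihood-ratio test, beside 0.0139% by DESeq2, and Hspa1a was the 1 gene of 10 with an unadjusted p below 0.05, against 1.38% of all genes (log2 fold change 1.42, SE 0.64, 2.67-fold, edgeR adjusted p = 1).

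Memantine was also set against the mean of the 4 groups with glutamate and no memantine. This comparison called 2.39% of all genes, none of them among the 10. No gene of the 10 had an unadjusted p below 0.05, against 11.9% of all genes, and the likelihood-ratio test and DESeq2 called none, against 5% and 4.15% of all genes. Dnajb1 had 0.45 (SE 0.27, edgeR adjusted p = 0.591) and Hsph1 0.78 (SE 0.47, adjusted p = 0.61). Dnajb1 lay between 0.08 (without Memantine 1) and 0.71 (without Memantine 2) and Hsph1 between 0.15 (without Memantine 2) and 1.13 (without Memantine 3). An F test of edgeR over all 6 groups gave unadjusted p of 0.118 for Hspb1, 0.165 for Bag3 and 0.188 for Hspa1a and at least 0.468 for the others. Its adjusted p were 0.975 or above for all 10, against 0.00695% of all genes called and 7.75% at an unadjusted p below 0.05.

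Values of Hspb1 and Bag3 were then read within each replicate number. Control passed the pairing criterion with Glutamate_vesicles only, so that in the other groups the libraries set against Control share a number and nothing else that the labels give. Against the Control library of the same number, Hspb1 was higher in 14 of 15 libraries, by up to 56.9-fold in Glutamate_vesicles 1, and Bag3 was higher in 14 of 15, by up to 15.4-fold in Glutamate 1. These highest ratios divide by Control 1, which had 10 counts of Hspb1, 23 of Bag3 and 43.0% rRNA. The 15 ratios of a gene share 3 Control libraries as divisors and are not 15 independent observations. Both genes were named above for their p against these same Control libraries, so that the counts add no separate support. The share of all genes with such counts was not computed. In the third replicates the ratios to Control were 1.45 to 5.68 for Hspb1 and 0.826 to 1.47 for Bag3. The replicate numbers differed in the Glutamate library itself. In the second replicates, Hspb1 was at 1.39 times the Control library in Glutamate and 0.926 times in Memantine, beside 18.04, 13.9 and 19.8 times in Glutamate_vesicles, Glutamate_secret and Glutamate_BPC. In the first replicates it was already at 23.0 times in Glutamate, and in the third at 1.45 times. Against the Glutamate library of the same number, Hspb1 was higher in 7 of 9 libraries with a preparation, Hspa1a in 8 of 9 and Bag3 in 5 of 9. These 9 ratios share 3 Glutamate libraries as divisors, of which Glutamate 2 had 4 counts of Hspa1a. Hspd1 was above its Control library in 13 of 15, at 0.909 to 1.78 times.

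**Figure D3:**
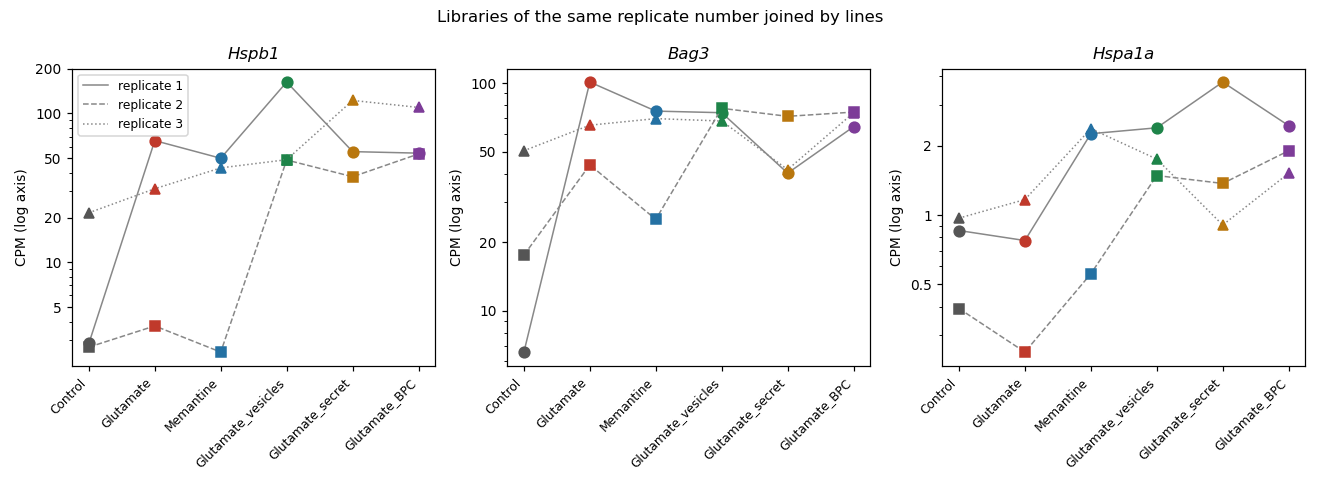
Level of Hspb1, Bag3 and Hspa1a in CPM (log axes) across the 6 groups, with libraries of the same replicate number joined. In replicate 2, Hspb1 is at 2.70, 3.75 and 2.50 CPM in Control, Glutamate and Memantine and at 48.7, 37.6 and 53.5 in the groups with a preparation. The other replicates differ. In replicate 1, Hspb1 is at 65.7 in Glutamate, above Glutamate_secret (55.4) and Glutamate_BPC (54.2). In replicate 3 it is at 31.2 in Glutamate and 43.1 in Memantine, beside 48.9, 122 and 110 with a preparation.

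As a description, the share of the variance of log2 CPM that lay between the 6 groups was highest for Bag3 (55.1%), Hspb1 (51.9%), Hspa1a (47.2%) and Hspd1 (44.6%) and lay between 11.3% and 32.9% for the other 6 genes. The share between the 3 replicate numbers was highest for Hsp90aa1 (58.8%), Hspe1 (56.6%), Hsph1 (55.6%) and Dnajb1 (48.6%) and was 4.33% to 26.1% for the others. The first share is over more means than the second, so that they cannot be set against each other gene by gene. Part of each share arises from the spread between libraries alone, and the shares over all genes were not computed. The edgeR F test over the 6 groups gave unadjusted p of 0.165 for Bag3, 0.118 for Hspb1, 0.188 for Hspa1a and 0.628 for Hspd1.

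Of the 10 genes, 3 varied with the rRNA share of the libraries. How many of all tested genes did so was not computed, so that the count cannot be read as particular to this set. Over 18 libraries, log2 CPM of Hsp90aa1 had a Pearson r of 0.91 and a Spearman rho of 0.90 with the log2 rRNA share (two-sided permutation p = 1e-05 for both, the smallest that the permutations can give, adjusted p = 1e-04 over 10 relations). Within the replicate numbers r was 0.83, 0.72 and 0.96, and without Control 1 and Glutamate_secret 2, the libraries farthest from the median share, it was 0.85. Hsph1 went the other way, with r = -0.85 and rho = -0.86 (permutation p = 2e-05 and 3e-05, adjusted p = 1e-04 and 0.00015). Its r was -0.51, -0.45 and -0.86 within the numbers and -0.88 without the same libraries. Hspe1 had r = 0.72 and rho = 0.75 (permutation p = 0.00081 and 0.00051, adjusted p = 0.0027 and 0.0017), and 0.77 without those libraries, but only 0.37, 0.13 and 0.65 within the numbers. The other 7 genes did not pass with adjusted permutation p, with r between -0.52 for Hspd1 and 0.41 for Dnajb1. Hspb1 (r = 0.21) and Bag3 (r = -0.25) were among them, and their r within the numbers differed in sign or size, at -0.95, -0.15 and 0.66 for Hspb1 and at -0.92, -0.12 and -0.22 for Bag3. When the rRNA share entered the edgeR model as a covariate, Hsp90aa1 had a log2 fold change of -0.40 (SE 0.45, adjusted p = 0.754) in Glutamate against Control. As a description, r with the rRNA share was 0.90 for Hsp90ab1, the constitutive Hsp90, and -0.83 for Hspa9, the mitochondrial Hsp70.

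**Figure D4:**
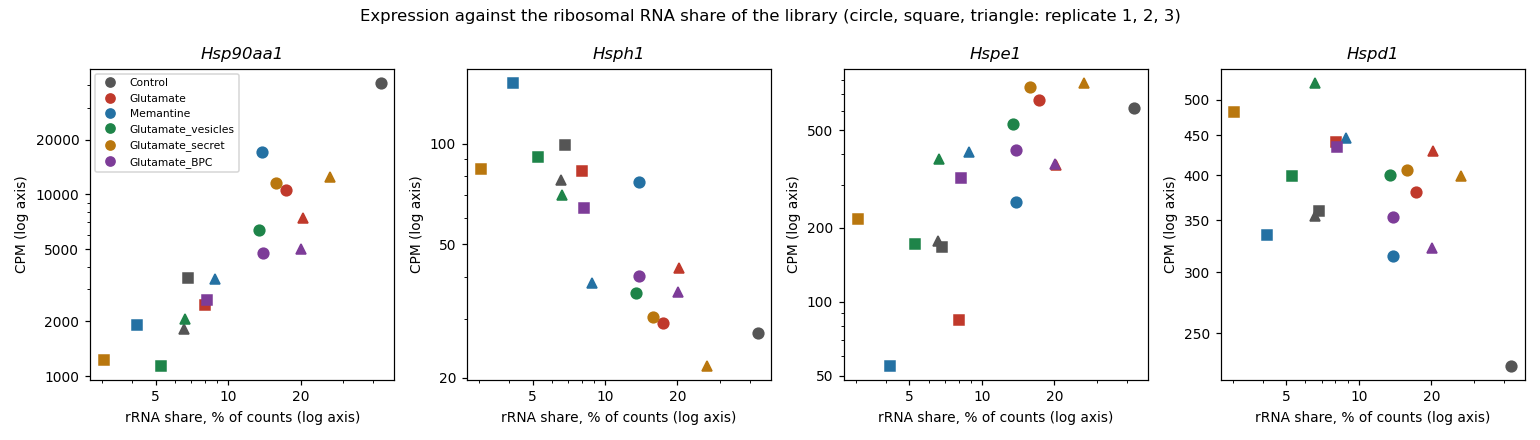
Level of Hsp90aa1, Hsph1, Hspe1 and Hspd1 in CPM against the rRNA share of each library in percent of counts, both on log axes; colours are groups and symbols replicate numbers. Hsp90aa1 follows the share (r = 0.91), Hsph1 goes against it (r = -0.85), and the Hspd1 value of Control 1, 227 CPM at 43.0% rRNA, is the lowest of that gene.

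Of the 45 pairs among the 10 genes, 11 had an adjusted permutation p below 0.05 for Pearson's r, 7 positive and 4 negative. The share among pairs of other genes was not computed, so that the count cannot be read as particular to this set. The tightest was negative, Hsph1 with Hspe1, with r = -0.91 and rho = -0.95 (permutation p = 1e-05, adjusted p = 0.00045). It was -0.87 without Memantine 2 and Glutamate_secret 3, and -0.95, -0.81 and -0.85 within the replicate numbers. Both genes varied with the rRNA share in opposite directions (r = -0.85 for Hsph1 and 0.72 for Hspe1), and its part in this pair was not tested. Hspb1 and Bag3 had r = 0.77 and rho = 0.52 (permutation p = 0.00044 and 0.0285, adjusted p = 0.0099 and 0.128), 0.69 without Memantine 2 and Control 2, and 0.92, 0.92 and -0.10 within the numbers, so that the relation did not hold in the third replicates. Hspa1a and Hspb1 had r = 0.72 and rho = 0.59 (permutation p = 0.00091 and 0.0113, adjusted p = 0.0104 and 0.0759), 0.55 without Glutamate 2 and Control 2, and 0.53, 0.93 and -0.01 within the numbers. The pairs are taken over the same 18 libraries. The permutations ignored group and replicate number, so that these p can be too small.

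**Figure D5:**
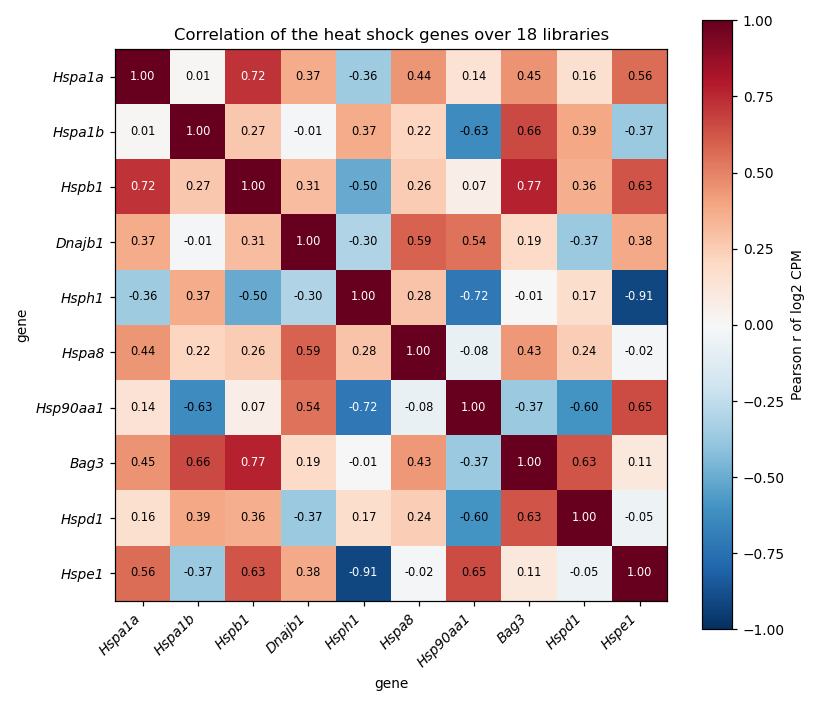
Pearson r of log2 CPM over 18 libraries for each pair of the 10 genes, with the value printed in each cell. Hspb1 is highest with Bag3 (0.77) and Hspa1a (0.72), and Hsph1 with Hspe1 is the lowest pair (-0.91).

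Outside the set, 11871 genes were searched for patterns most like 3 of the genes, by Pearson r of log2 CPM over the 18 libraries. For Hspb1 these were Lgals3 (0.96), which encodes galectin-3, Pdlim1 (0.95), a PDZ and LIM domain protein, and Ier5l (0.95). For Dnajb1 they were Rrp7a (0.95), Rfxap (0.95) and P4htm (0.95). Hspd1 had lower values, with Shcbp1 (0.91), Gtpbp10 (0.90) and Ugt1a8 (0.88). By Spearman's rho, 2 of these 9 genes were again among the 3 highest, and with values centred within replicate numbers, 4 of 9.

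Of 47 further genes of the chaperone system in 7 lists, 46 were tested and 0 were called by edgeR in any comparison. In Glutamate against Control 1 of the 46 had an unadjusted p below 0.05, against 8.11% of all genes. It was higher in Glutamate, against 2.13% of all genes in that direction. This was Hspb8, the small heat shock protein that forms a complex with Bag3, at 64.3 ± 19.5 CPM in Glutamate and 32.7 ± 12.6 in Control (log2 fold change 0.97, SE 0.43, adjusted p = 0.566). Its values were 21.1, 30.7 and 46.2 CPM in Control and 54.9, 51.4 and 86.7 in Glutamate, without overlap. In its list 1 of 4 genes lay above Control in this way, and 1 of 7 among the mitochondrial chaperones and proteases. The other lists had 0, and the share of all genes was 4.48%. Of the 4 other small heat shock protein genes, 3 had estimates above 0 there (median 0.79), including Hspb6 at 0.75 (SE 0.45, adjusted p = 0.814). Among 7 other mitochondrial chaperones and proteases, 6 were above 0 (median 0.25), led by Lonp1, the matrix protease, at 0.65 (SE 0.31, adjusted p = 0.628), and Hspa9 at 0.63 (SE 0.48, adjusted p = 0.942). The heat shock factor genes themselves differed little, with 0.10 for Hsf2 (SE 0.41) and -0.04 for Hsf1 (SE 0.62), both with an adjusted p of 0.999. The 12 other cytosolic Hsp70, Hsp110 and Hsp40 genes had a median of 0.03, the 8 tested genes of Hsp90 and its cochaperones 0.00, the 5 other nucleotide exchange factors -0.06 and the 8 subunits of the cytosolic chaperonin 0.14. The median over all 46 was 0.09, beside 0.08 over all tested genes.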

How the data were processed

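The 10 genes, the lists of further chaperone genes and the markers were chosen with earlier results of these data known. Expected counts, that is, estimated counts of reads per gene, were deposited for each of the 18 libraries. According to the methods, the authors removed adapters and poor bases with Trimmomatic, then Cutadapt, and made the values with Salmon against Ensembl transcripts of the build rn6, with the genome as decoy, and summed transcripts to genes with tximport. The submitters' processing notes also name STAR. The versions of Salmon and STAR and the strand setting are not given in the sources used here, so that overlapping or near-identical genes can share reads. Methods and labels differ in the sequencing platform. The values carried no scaling between libraries.

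The values were rounded to whole numbers, since the design of the tests had assumed counts. Genes were tested with edgeR 4.0.16 (R 4.3.3): filterByExpr (minimum count 10, minimum total count 15), TMM scaling, 1 mean per group over all 18 libraries, and the two-sided quasi-likelihood F test with Benjamini-Hochberg adjustment over 14398 genes. Genes were called at an adjusted p below 0.05. Besides 11 comparisons and an F test over the 6 groups, the mean of the 3 preparations was set against Glutamate, which was added after the values of Hspa1a and Hspb1 were seen. All 10 genes were named for Glutamate against Control. For each other comparison, those with an unadjusted p below 0.05 or else the 2 with the smallest p were named, and from each chaperone list at most the 2 with the smallest p. Hspb8, Hspb6, Lonp1, Hspa9, Hsf1 and Hsf2 follow this rule, and Hsp90ab1 was added after its values were seen. Correlations used log2 CPM (prior count 2) and 100000 permutations (Pearson, Spearman). These shuffled values freely over the 18 libraries, without regard to group or replicate number, so that permutation p can be too small, also for the rRNA share. Genes most like a member were sought at a mean log2 CPM of at least 1. rRNA comprised 78 rows that a RefSeq gene table lists as such.

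Pairing by replicate number was taken to hold where the deviations of same-numbered libraries from their group means had r above 0.1 for all 3 numbers. This was so in 8 of 15 pairs of groups, among them Control with Glutamate_vesicles (0.60, 0.50 and 0.21). The labels give these numbers no meaning. Alternatives were the likelihood-ratio test of edgeR, which the study used, DESeq2 1.42.0, other scalings, no filter, rRNA left out or as a covariate, the replicate block, only the groups compared, Hspa1a and Hspa1b added, and each library left out in turn. The model code was tested on simulated data. Libraries of 8409574 to 17206354 counts gave Hspa1a as few as 3 counts.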

Additional observations from a re-analysis of the deposited data

How the results depend on the processing

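Of 30 fold changes recomputed under 11 alternatives and without each library in turn, 517 of 544 values kept their direction and their side of the threshold and 14 newly passed it. Among these 30, reversals concerned Glutamate against Control only, the comparison for which every gene of the set was checked. Elsewhere only the genes named for a comparison were checked, so that reversals of other genes were not counted. Hsp90aa1, not among those, also turned without Control 1 in the other comparisons of a single group with Control, as given above. In Glutamate against Control, Hspa1a was 0.015 in the replicate block with the rRNA covariate and -0.546 to 0.427 over left-out libraries. Hspa8 was -0.143 with library totals only and -0.124 to 0.195 over left-out libraries. Over these, Dnajb1 was -0.303 to 0.163, Hsp90aa1 -1.712 (without Control 3) to 1.363 (without Control 1), and Hspe1 -0.526 to 1.101. None of these estimates was called under any of the alternatives run, and the cause was not tested.

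The count of called genes, 0 of 10 by the quasi-likelihood test, moved in 5 comparisons with Control. In the replicate block it was 1 (Hspb1) for Glutamate_vesicles, 1 (Hspb1) for Glutamate_secret (adjusted p = 0.0401) and 1 (Hspb1) for the mean of the 4 glutamate groups (0.0166), and in the block with the rRNA covariate it was 1 for Glutamate (Bag3), 1 for Glutamate_vesicles (Hspb1), 1 for Glutamate_secret (Hspb1), 2 for Glutamate_BPC and 2 for the 4 groups (both Hspb1 and Bag3). Control with Glutamate, Glutamate_secret or Glutamate_BPC did not pass the pairing criterion, so that these libraries share only a number. The block changed no other call among the 10. Of all genes, the block called 3.74% for Glutamate_vesicles. For the other block fits and for left-out libraries the share of all genes is not given here. Their counts can therefore not be read as particular to these genes. DESeq2 called 1 for Glutamate_vesicles (Hspb1, against 3.66% of all genes) and 2 for the 4 groups (against 8.1%). Over left-out libraries the count for the 4 groups was 0 to 1, with Bag3 called without Control 3. Scaling, filter, rRNA removal, rRNA covariate alone, the likelihood-ratio test, the groups compared alone and the sum of Hspa1a and Hspa1b gave 0 of 10 in each comparison.

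With CPM of the total without rRNA rows, 19 of 60 group means of the genes and 7 of 36 summed marker levels moved by more than 1 SD. Spearman's rho kept 2 and centred values 4 of the 9 most similar genes. The heat shock element in its form with 3 units was in 4 windows in place of 7. Hspa1a, with 3 to 37 counts per library, is limited by depth.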

Other observations

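In the added comparison of the 3 preparations, 9 libraries, with the 3 Glutamate libraries, DESeq2 and the likelihood-ratio test called 0 of the 10 genes. The log2 fold change of Hspa1a lay between 0.986 (without Glutamate 2) and 1.96 (without Glutamate 3) when 1 library was left out, and the sum of Hspa1a and Hspa1b had 0.24 (SE 0.37, adjusted p = 1). Hspb1 had 1.66 (SE 0.70, adjusted p = 0.999) in the replicate block. The estimates for Bag3 were -0.09 in that block and -0.12 by the likelihood-ratio test.

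When the 4 glutamate groups without memantine were averaged against Control, 3 of the 46 further chaperone genes had an unadjusted p below 0.05, against 16.4% of all genes. Hspb6, a small heat shock protein of muscle and astrocytes, was at 14.4 ± 2.65 CPM against 7.44 ± 2.78 (log2 fold change 0.93, SE 0.38, edgeR adjusted p = 0.217). Hspb8 was at 57.3 ± 13.2 against 32.7 ± 12.6 (0.80, SE 0.36, adjusted p = 0.267), and Lonp1 at 225 ± 44.5 against 146 ± 37.2 (0.61, SE 0.26, adjusted p = 0.228). None passed the adjusted threshold. In Memantine, the third library, in which the neuron markers were at 599 CPM, had Hspb6 at 23.1 and Hspb8 at 73.4 CPM. The first and second, with neuron markers at 3018 and 2055, had 10.1 and 5.50 for Hspb6 and 22.4 and 32.1 for Hspb8. Hspb1 (50.04, 2.50 and 43.1 CPM in replicates 1, 2 and 3) and Bag3 (75.3, 25.2 and 69.8) were instead highest in the first library. A relation of these genes to the neuron markers was not tested.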
